A study of Mus musculus with 6 samples.

Results

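Antigen presentation genes encode the proteins that carry peptides to the cell surface for inspection by T cells, and 10 of them were followed in mouse liver: H2-Aa, H2-Ab1, H2-Eb1, Cd74 and Ciita of the class II pathway, and H2-K1, H2-D1, B2m, Tap1 and Tapbp of the class I pathway. They were chosen by symbol, as the 10 entries with these names among the 55385 genes of the deposited table. RNA of 6 livers from C57BL/6 mice aged 6 weeks was sequenced, 2 mice per group. Wild-type controls (replicates 3 and 6) had an intraperitoneal injection of 200 µL PBS, here called saline. Wild-type mice (replicates 1 and 4) and Optn-/- mice (replicates 4 and 5) were given acetaminophen by the same route at 500 mg/kg, and every liver was taken 6 h after injection. Optn encodes optineurin, a receptor for selective autophagy, and the series' title places the study in acetaminophen liver injury and mitophagy. Optn-/- livers were sequenced only after acetaminophen, and an untreated Optn-/- group was not analysed here. How the Optn allele was made, and in which cells it is lost, is not given in the sources used here.

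MHC class II molecules are pairs of an alpha and a beta chain that present peptides from the endocytic pathway to CD4+ T cells. They are made mainly by dendritic cells, B cells and macrophages, in liver including the resident Kupffer cells. MHC class I molecules, a heavy chain with beta-2-microglobulin, present peptides of the cytosol to CD8+ T cells and are made by nearly all nucleated cells, hepatocytes included. Transcription of class II genes depends on the coactivator CIITA, that of class I genes in part on its relative NLRC5, and interferon gamma raises both.

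The promoters of 5 members, 2 of class II and 3 of class I, are printed so that the elements they share can be seen. They are the 200 bases before the RefSeq transcript start, from the RefSeq promoter table of build GRCm38.p6, 5′ to 3′ on the gene's own strand. RefSeq promoters were on hand for 7 of the 10 genes, and not for Cd74, H2-Ab1 or Ciita. Capitals mark every match, on either strand, to 6 motifs: the X box of class II promoters (TNGCAAC), the cyclic AMP response element core that follows it (TGACG), the Y box bound by NF-Y (ATTGG), a pair of interferon response elements (GAAANNGAA and GAANNGAAA) and the kB element (GGGNNTTCC).
H2-Aa, chr17:34287824-34288023, minus strand: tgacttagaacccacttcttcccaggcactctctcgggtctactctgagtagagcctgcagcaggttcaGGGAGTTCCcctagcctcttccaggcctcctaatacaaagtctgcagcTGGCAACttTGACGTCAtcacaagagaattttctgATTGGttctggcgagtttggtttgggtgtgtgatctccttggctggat
H2-Eb1, chr17:34305667-34305866, plus strand: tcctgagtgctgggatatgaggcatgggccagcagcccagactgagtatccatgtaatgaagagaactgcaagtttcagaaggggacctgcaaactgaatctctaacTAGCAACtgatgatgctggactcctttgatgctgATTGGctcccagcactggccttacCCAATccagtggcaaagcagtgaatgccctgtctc
H2-D1, chr17:35262894-35263093, plus strand: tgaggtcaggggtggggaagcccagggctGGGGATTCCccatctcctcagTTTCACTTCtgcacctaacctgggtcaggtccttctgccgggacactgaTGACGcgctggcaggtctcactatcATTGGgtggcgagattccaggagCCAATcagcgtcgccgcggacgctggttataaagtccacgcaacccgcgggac
H2-K1, chr17:34000348-34000547, minus strand, from the first of 2 RefSeq starts: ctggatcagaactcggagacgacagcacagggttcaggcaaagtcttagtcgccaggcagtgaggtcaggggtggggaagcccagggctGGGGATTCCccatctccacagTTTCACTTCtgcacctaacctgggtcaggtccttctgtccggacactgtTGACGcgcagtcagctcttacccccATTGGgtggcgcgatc
B2m, chr2:122147487-122147686, plus strand: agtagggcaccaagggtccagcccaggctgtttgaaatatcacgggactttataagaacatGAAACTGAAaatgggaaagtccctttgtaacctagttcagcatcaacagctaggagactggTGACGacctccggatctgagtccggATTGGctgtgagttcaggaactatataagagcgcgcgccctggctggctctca

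Both class II promoters held an X box match followed by a Y box match. In H2-Aa the X box match lay 83 to 77 bases before the start and the Y box match 48 to 44 bases before it, and in H2-Eb1 they lay at 93 to 87 and at 59 to 55. H2-Aa also held a kB match and, just after the X box match, TGACG on both strands with overlapping letters. H2-D1 and H2-K1 had no X box match in these windows but carried the same series of a kB match, a GAANNGAAA match on the opposite strand, TGACG and a Y box match. B2m carried GAAANNGAA, TGACG and a Y box match, Tap1 a TGACG match only and Tapbp a Y box match only. Among all 32851 promoters of the same length, 7.36% held an X box match, 15.7% TGACG, 29.3% a Y box match, 5.57% GAAANNGAA, 5% GAANNGAAA and 4.13% a kB match. A match describes letters in the window and was not tested for binding.

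The libraries held 59143418 to 77292216 counts. Optn was listed at an FPKM (fragments counted per kilobase of gene length, scaled to the library total) of 20.9 and 18.7 in saline replicates 3 and 6, 9.17 and 9.19 in treated wild-type replicates 1 and 4, and 0.316 and 0.457 in Optn-/- replicates 4 and 5, so the genotype labels held. Transcripts of other tissues divided the libraries into 2 sets. Markers of skeletal muscle summed to 68.9 to 105 CPM (counts scaled to the library total) in saline replicate 3 and both treated wild-type livers and to at most 1.01 CPM in the other livers. The intestinal lectin gene Zg16 was at an FPKM of 2.09 to 3.68 in saline replicate 6 and both Optn-/- livers and had a count of 0 in the others. The sum of 12 intestinal markers did not divide the libraries this way, with 63.5 CPM in saline replicate 3 and 56.0 CPM in Optn-/- replicate 4. Among them Fabp2 was highest in saline replicate 3, at an FPKM of 47.6. A library was placed by whether its muscle sum exceeded its intestinal sum. Each treated group therefore lay in 1 set, and the effect of a library set term is given beside the calls that it changed. Differences below are log2 fold changes ± SE from the quasi-likelihood test of edgeR, fitted to the counts of 11677 genes in all 6 libraries, with p adjusted by Benjamini-Hochberg over all of these genes and called under 0.05. In bulk tissue, fewer cells of a type and less RNA per cell cannot be told apart.

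**Figure D1:**
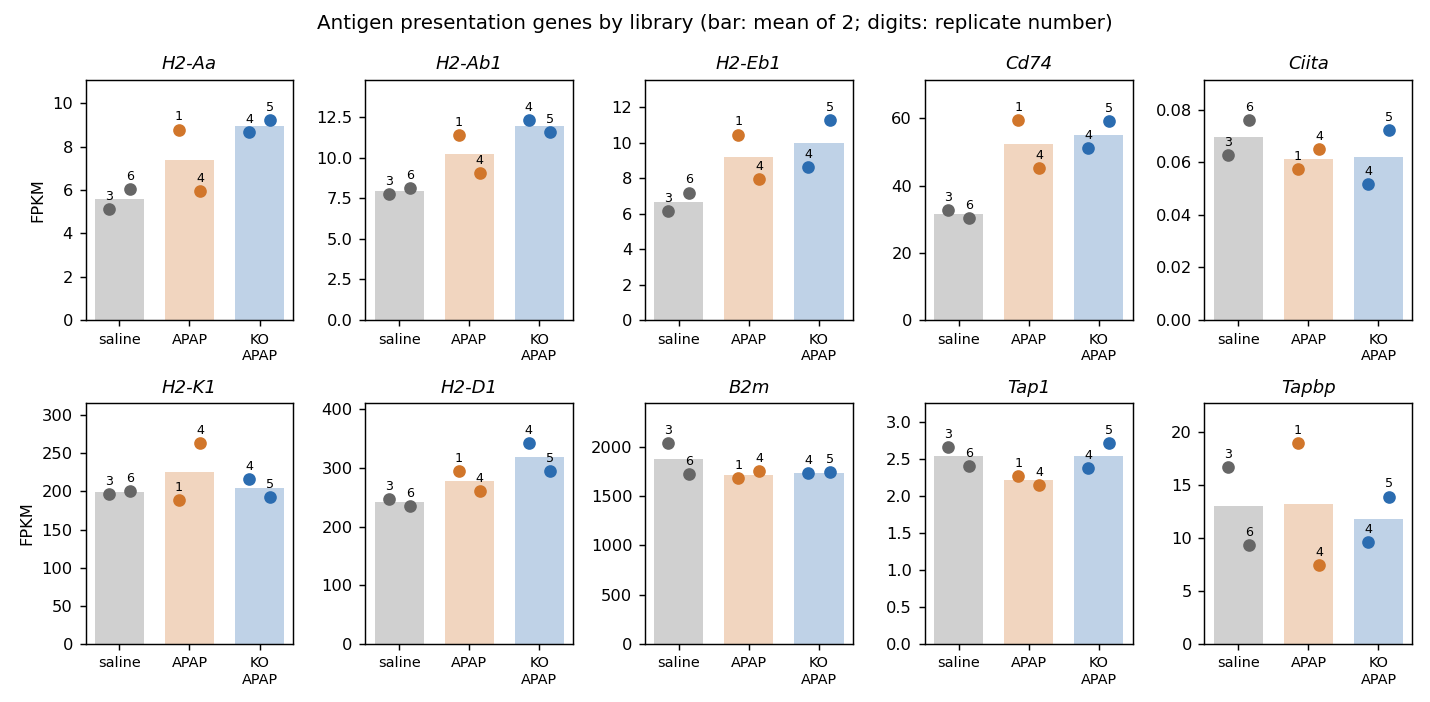
FPKM of the 10 antigen presentation genes (vertical axes from 0, one scale per gene) in saline wild-type, acetaminophen wild-type (APAP) and acetaminophen Optn-/- (KO APAP) livers. Points are single livers with their replicate number and bars are means of 2. Cd74 lay at 45.2 to 59.6 in all 4 treated livers against 30.5 and 32.7 with saline, while B2m stayed between 1689 and 2037 and Ciita at or below 0.0762.

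Of the genes for class II molecules, Cd74 rose with acetaminophen in wild-type mice, and those for the 3 class II chains were higher on average without passing the test. Cd74 encodes the invariant chain, which fills the class II groove until a peptide replaces it, and had the highest level per length of the class II genes. Its FPKM was 32.7 and 30.5 with saline, 59.6 and 45.2 in treated wild type, and 51.1 and 59.3 in treated Optn-/- mice. Every treated liver was above both saline livers, and the treated groups overlapped. Treated wild type exceeded saline by 0.94 ± 0.18 (edgeR adjusted p = 0.0256, higher in 2 of 2 mice), a fitted 1.92-fold rise. Cd74 was the 1 member of 9 tested that was called, where 14.3% of all genes were called in either direction, 8.36% as higher and 5.92% as lower. The call ended without saline replicate 3 (edgeR adjusted p = 0.0992), saline replicate 6 (0.117), treated wild-type replicate 1 (0.0771), Optn-/- replicate 4 (0.0509) or Optn-/- replicate 5 (0.0521), and when the library set was added to the model (0.88, adjusted p = 0.111). It held without treated wild-type replicate 4 (1.16, edgeR adjusted p = 0.0225).

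H2-Aa encodes the alpha chain of the class II molecule I-A and H2-Ab1 its beta chain. The FPKM of H2-Aa was 5.12 and 6.03 with saline, 8.79 and 5.96 in treated wild type, and 8.67 and 9.23 in treated Optn-/- mice. Treated wild-type replicate 4 lay within the saline range, replicate 1 beside the Optn-/- livers. The difference of H2-Aa in wild type was 0.62 ± 0.22 (edgeR adjusted p = 0.118), and it rested on replicate 1: without that liver it was 0.28 (adjusted p = 0.37), and without replicate 4 it was 0.90 and passed (adjusted p = 0.0418). The FPKM of H2-Ab1 was 7.75 and 8.11 with saline, 11.4 and 9.02 in treated wild type, and 12.3 and 11.6 in treated Optn-/- mice. All 3 groups of H2-Ab1 were apart, in that order. Its difference in wild type was 0.58 ± 0.17 (edgeR adjusted p = 0.0738).

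H2-Eb1 encodes the beta chain of the other class II molecule, I-E. C57BL/6 mice lack the I-E alpha chain because their H2-Ea gene is defective, so its transcript has no partner chain in this strain. The pseudogene entry H2-Ea-ps had a count of 0 in 5 libraries and an FPKM of 0.0508 in treated wild-type replicate 1. The FPKM of H2-Eb1 was 6.17 and 7.19 with saline, 10.5 and 7.96 in treated wild type, and 8.63 and 11.3 in treated Optn-/- mice. Both treated groups were above saline and overlapped each other. The difference of H2-Eb1 in wild type was 0.68 ± 0.22 (edgeR adjusted p = 0.0915).

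Over the 3 class II chains and Cd74, the median log2 fold change in wild type was 0.65, against 0.03 over all genes tested. All 4 had an unadjusted edgeR p under 0.05, which 17.3% of all genes had in the higher direction. FPKM did not overlap between the groups, and was higher after acetaminophen, for 3 of the 4, which held for 21.1% of all genes. FPKM divides by the total count, while the fit uses trimmed-mean (TMM) scaling. The choice moved the median gene by -0.22 between treated wild type and saline, so fitted differences are larger than ratios of FPKM. Under total count scaling Cd74 was at 0.72 and still called (edgeR adjusted p = 0.0384), and taken relative to the median gene its difference was 0.91 there and 0.92 under TMM.

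Ciita, the coactivator on which class II transcription depends, was at a low level in whole liver but was counted in every library. Its FPKM was 0.0629 and 0.0762 with saline, 0.0573 and 0.0651 in treated wild type, and 0.0516 and 0.0723 in treated Optn-/- mice, from 40 to 61 counts per library. The 3 groups overlapped. The gene fell below the level filter (a mean FPKM of at least 0.5) and was therefore not among the 9 tested. Fitted without the filter, its log2 fold change in wild type was -0.04 (edgeR adjusted p = 1.0).

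**Figure D2:**
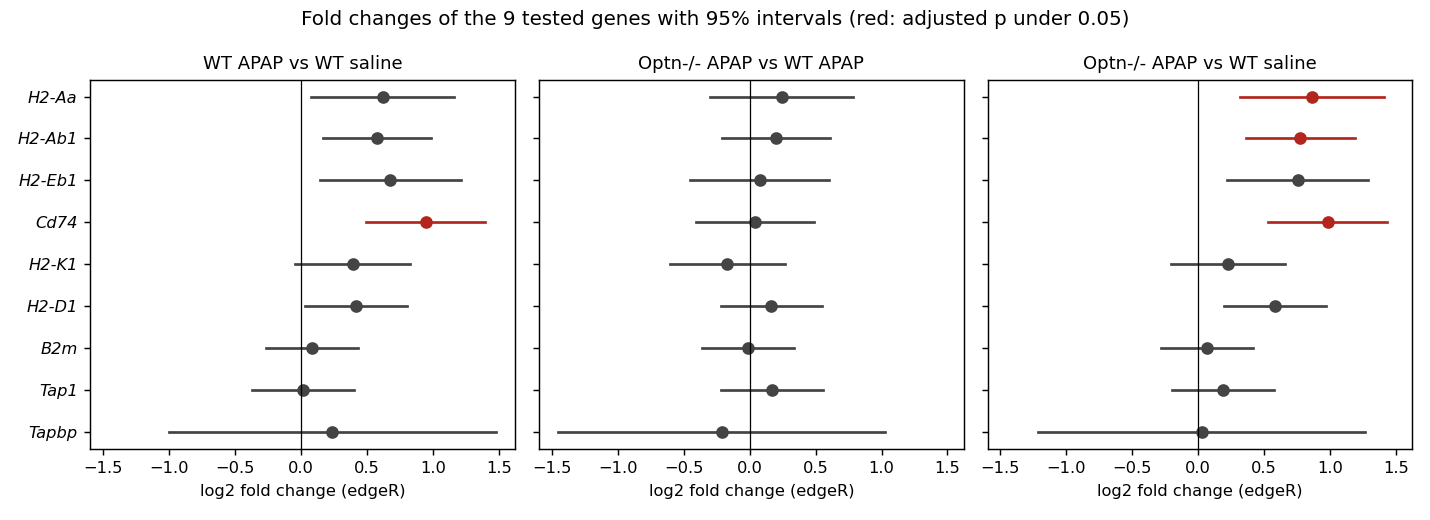
Log2 fold changes of the 9 tested members (points) with 95% intervals (lines) from edgeR in the 3 comparisons, with genes called at an adjusted p under 0.05 in red. Cd74 is called in both comparisons with saline, H2-Aa and H2-Ab1 in that of treated Optn-/- livers, and the intervals of all 9 genes cross 0 between the treated genotypes.

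The class I members were far more abundant per length, and 0 of 5 were called in wild type (1 of 5 at an unadjusted edgeR p under 0.05, and 0 of 5 in DESeq2 and limma). H2-K1 and H2-D1 encode the classical heavy chains of this strain. The FPKM of H2-K1 was 197 and 200.4 with saline, 189 and 263 in treated wild type, and 216 and 193 in treated Optn-/- mice. Only treated wild-type replicate 4 stood above the rest, and that group had the widest spread. The difference of H2-K1 in wild type was 0.39 ± 0.18 (edgeR adjusted p = 0.189).

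The FPKM of H2-D1 was 247 and 236 with saline, 295 and 260.1 in treated wild type, and 342 and 294 in treated Optn-/- mice. Each treated liver lay above both saline livers, as with Cd74, in contrast to H2-K1. Its difference in wild type was 0.42 ± 0.16 (edgeR adjusted p = 0.132). Of the distinct 50-base stretches in the transcripts of H2-D1, 12.8% also occur in other genes, chiefly H2-Q1, and for H2-K1 the share was 9.63%, chiefly with H2-Q10. The authors' counting of such reads is not given in the sources used here, so the split of counts among these genes is uncertain. H2-Ab1, H2-Eb1, Cd74, Ciita and B2m shared none, and H2-Aa 0.488%.

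B2m, the light chain of every class I molecule, had the highest level of the 10 genes. Its FPKM was 2037 and 1724 with saline, 1689 and 1753 in treated wild type, and 1738 and 1744 in treated Optn-/- mice. Apart from saline replicate 3, the livers lay within 1689 to 1753. Its difference in wild type was 0.08 ± 0.14 (edgeR adjusted p = 0.739, 95% interval -0.27 to 0.43), and it turned to -0.14 under total count scaling. Relative to the median gene it was 0.05 under TMM and 0.06 under total count scaling.

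Tap1 encodes a subunit of the transporter that brings peptides into the endoplasmic reticulum. Its FPKM was 2.66 and 2.41 with saline, 2.27 and 2.15 in treated wild type, and 2.38 and 2.71 in treated Optn-/- mice. By FPKM treated wild type was below saline, but under TMM scaling the difference was 0.02 ± 0.16 (edgeR adjusted p = 0.958, 95% interval -0.37 to 0.40). Tap1 shares 212 exonic bases with Psmb9 on the opposite strand, 3.87% of its own, and whether counting used strand is not known. Tapbp encodes tapasin, which holds empty class I molecules at the transporter. Its FPKM was 16.7 and 9.32 with saline, 18.9 and 7.42 in treated wild type, and 9.61 and 13.9 in treated Optn-/- mice. The spread within each group exceeded any difference between groups, and the difference in wild type was 0.24 ± 0.50 (edgeR adjusted p = 0.786). Of its exonic bases 24.9% overlap the antisense gene Gm19412, which had 16 to 48 counts per library.

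The second comparison, of Optn-/- with wild-type livers after acetaminophen, asks whether loss of optineurin moved these genes in the injured liver. None of the 9 tested members differed (0 called by edgeR, DESeq2 or limma, and 0 at an unadjusted edgeR p under 0.05), where 0.103% of all genes were called and 8.77% had an unadjusted p under 0.05. The median over the class II genes was 0.14 and over the class I genes -0.01, against 0.00 over all genes. With 2 mice per group the intervals were wide. That of Cd74 (0.04 ± 0.18) ran from -0.41 to 0.49, that of H2-Aa (0.24 ± 0.22) from -0.30 to 0.78, that of H2-Ab1 (0.20 ± 0.17) from -0.21 to 0.61 and that of H2-Eb1 (0.08 ± 0.22) from -0.45 to 0.60. Differences within these bounds, in either direction, could not be told from 0. H2-D1 differed by 0.17 ± 0.16, H2-K1 by -0.17 ± 0.18, B2m by -0.01 ± 0.14, Tap1 by 0.17 ± 0.16 and Tapbp by -0.21 ± 0.50, with edgeR adjusted p from 0.801 to 0.989. FPKM did not overlap for H2-Ab1 and Tap1, both higher in Optn-/- livers, which is 2 of 9 beside 23.1% of all genes. In this comparison the library set and the genotype cannot be told apart except through the divided saline group.

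Compared with saline wild type, treated Optn-/- livers had higher Cd74, H2-Aa and H2-Ab1. These 3 of 9 members were called, where 20.3% of all genes were called and 12.2% as higher. Cd74 rose by 0.98 ± 0.18 (edgeR adjusted p = 0.0178), H2-Ab1 by 0.77 ± 0.17 (0.0266) and H2-Aa by 0.86 ± 0.22 (0.0439), each higher in 2 of 2 mice. H2-Eb1 (0.75 ± 0.22, edgeR adjusted p = 0.0599) and H2-D1 (0.58 ± 0.16, adjusted p = 0.0502) lay just outside the threshold. All 4 class II genes and H2-D1 had FPKM above both saline livers, which held for 24.3% of all genes. H2-K1 (0.22 ± 0.18), Tap1 (0.19 ± 0.16), B2m (0.07 ± 0.14) and Tapbp (0.03 ± 0.50) were not called. This comparison shares the saline livers with that in wild type, and it combines treatment and genotype. The 3 calls ended without saline replicate 3 or 6 or Optn-/- replicate 4 or 5. With any 1 library left out the differences were 0.88 to 1.06 for Cd74, 0.70 to 0.82 for H2-Ab1 and 0.77 to 0.95 for H2-Aa. The calls also ended when the library set was added (edgeR adjusted p = 0.0737 for Cd74, 0.122 for H2-Ab1, 0.187 for H2-Aa), and that of H2-Aa under total count scaling (0.0655). These are not all of the settings that ended a call: of 18, Cd74 was called in 13, H2-Ab1 in 12 and H2-Aa in 8.

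**Figure D3:**
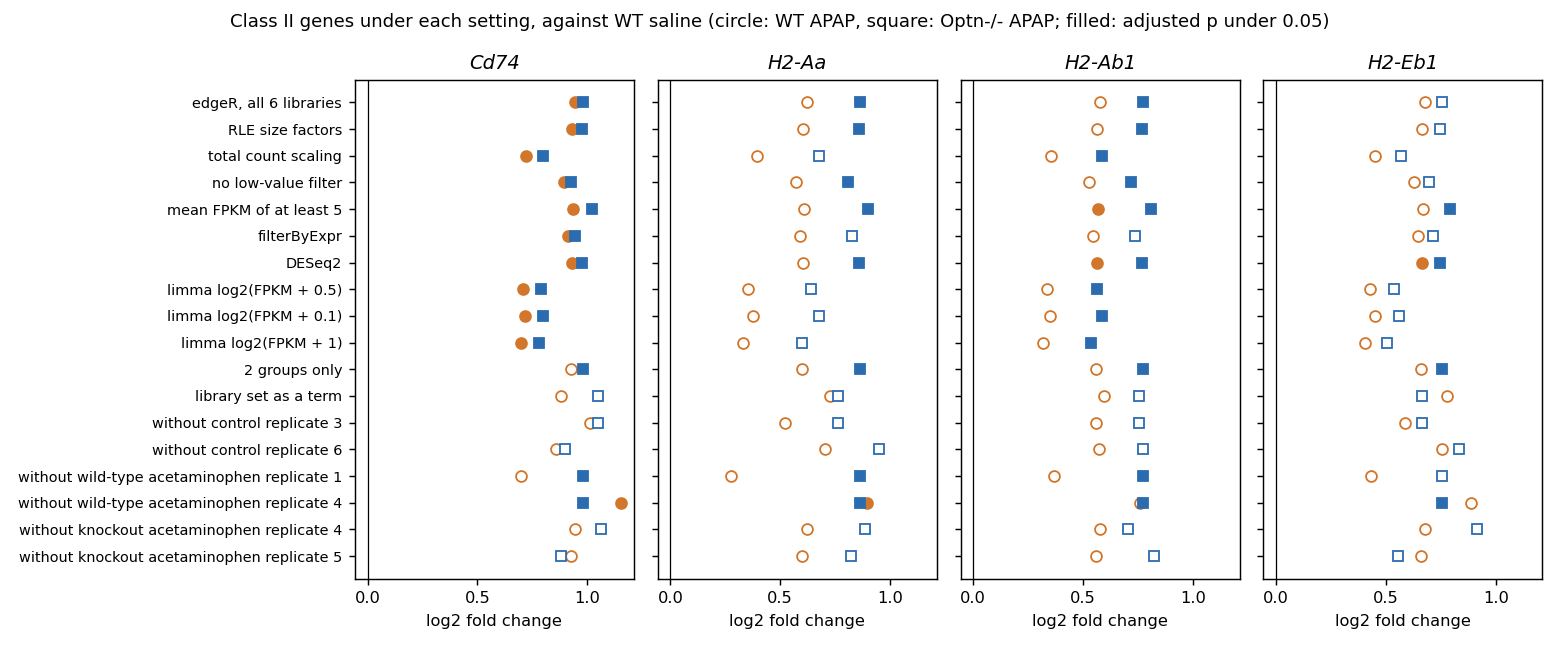
Log2 fold changes (horizontal axes) of Cd74, H2-Aa, H2-Ab1 and H2-Eb1 against saline under each of 18 settings (rows), for treated wild type (circles) and treated Optn-/- livers (squares), filled where the adjusted p is under 0.05. Every value is above 0, with Cd74 in wild type from 0.70 to 1.16 and called in 11 of 18 settings.

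The class II genes varied together from liver to liver, and H2-D1 with them. Over the 6 libraries Pearson's r between log2 CPM of the class II genes was 0.911 to 0.974, and between H2-D1 and the class II genes 0.803 to 0.974. For H2-K1 with the class II genes r was 0.223 to 0.443, and for B2m 0.222 to 0.474. These points are 3 groups of 2 livers that share treatment and scaling, so the values are descriptions. Among the 4265 genes averaging an FPKM of 5 or more, those most like Cd74 over the 6 libraries were Vapa (r = 0.996), Errfi1, Zfp623, Abhd17c and Raly, and those most like B2m were Kti12 (r = 0.990), B4gat1, Gemin7, Nnt and Bap1.

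Other genes of the class II pathway were taken from a list of peptide editors and endosomal enzymes, of which 11 had entries and 5 passed the level filter. In wild type 0 of 5 were called (3 of 5 at an unadjusted edgeR p under 0.05, all higher, beside 17.3% of all genes), with a median of 0.70. Ifi30, the lysosomal thiol reductase, differed by 0.70 ± 0.23 (edgeR adjusted p = 0.0972), the endosomal protease Ctss 0.89 ± 0.35 (0.148) and the protease Lgmn 0.82 ± 0.30 (0.12). Saline replicate 3 was the lowest library for all of them: the FPKM of Ctss was 9.73 and 21.5 with saline, 26.1 and 23.7 in treated wild type and 37.8 and 32.5 in treated Optn-/- mice. Between treated genotypes 0 of 5 were called, with Ctss at 0.47 ± 0.35, H2-DMa, a chain of the peptide editor H2-M, at 0.45 ± 0.45, and Ifi30 at 0.19 ± 0.23. Against saline, treated Optn-/- livers had higher Ctss (1.36 ± 0.36, edgeR adjusted p = 0.0465) and Ifi30 (0.89 ± 0.23, 0.0441), 2 of 5 beside 12.2% of all genes. Both of these calls were lost with filterByExpr and with only the 2 groups compared. In limma that of Ifi30 was lost in each fit and that of Ctss with 0.1 or 0.5 added to FPKM. Both calls were also lost with the library set term, under total count scaling and without any 1 library other than saline replicate 6. In wild type Ctss and Lgmn were instead called with that term, at 1.55 (edgeR adjusted p = 0.0255) and 1.33 (0.0331), and without saline replicate 6.

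Of the other class I and class I-like genes, 13 of 16 passed the filter and 1 rose in wild type, beside 8.36% of all genes. That gene was H2-Q4, a nonclassical heavy chain. Its FPKM was 15.4 and 14.1 with saline, 27.1 and 20.6 in treated wild type, and 32.5 and 32.5 in treated Optn-/- mice, with all 3 groups apart. H2-Q4 exceeded saline by 0.91 ± 0.18 in treated wild type (edgeR adjusted p = 0.027) and by 1.32 ± 0.18 in treated Optn-/- livers (0.0074), and the genotypes differed by 0.41 ± 0.18 (0.594). The call in wild type was lost with the library set term (0.83, edgeR adjusted p = 0.117), with only the 2 groups compared (0.0576) and without any 1 library other than treated wild-type replicate 4. The call in treated Optn-/- livers held in every fit. Of its 50-base stretches 21.8% occur in other genes, chiefly H2-Q6, so its count is uncertain. H2-Q10, a secreted heavy chain made by hepatocytes, had FPKM of 393 to 474 in all libraries and log2 fold changes of 0.33 ± 0.15 in wild type (edgeR adjusted p = 0.184) and -0.18 ± 0.15 between genotypes (0.775). Cd1d1, which presents lipids to NKT cells, was at -0.29 ± 0.11 in wild type (0.132) and 0.22 ± 0.11 between genotypes (0.639). Over the 13 genes the median was 0.21 in wild type and 0.07 between genotypes.

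The genes that supply and load class I peptides had mostly negative differences. Of the 12 beside Tap1 and Tapbp, all tested, 11 had a negative log2 fold change in wild type (median -0.19) and 11 were lower in FPKM without overlap, where 45.1% of all genes were lower in FPKM without overlap. By the test 0 of 12 were called (4 of 12 at an unadjusted edgeR p under 0.05, all lower, beside 15% of all genes). Psmb9, a catalytic subunit of the immunoproteasome, had FPKM of 4.54 and 3.85 with saline, 1.83 and 1.51 in treated wild type, and 2.34 and 1.48 in treated Optn-/- mice. Its difference in wild type was -1.11 ± 0.28 (edgeR adjusted p = 0.0542). Psmb10, another such subunit, was at -0.47 ± 0.14 (0.0719) and the peptide editor Tapbpl at -0.53 ± 0.17 (0.0984). Under total count scaling, and in each limma fit, 4 of the 12 fell in wild type, and with DESeq2 3 fell. Psmb9, Psmb10 and Tapbpl were among them in each of these fits. Total count scaling moved the median gene itself by -0.22 in wild type, and the limma fits used FPKM, which divides by the same total. Between genotypes 0 of 12 were called, with the loading oxidoreductase Pdia3 at -0.22 ± 0.14, the chaperone Canx at -0.19 ± 0.13 and the trimming peptidase Erap1 at -0.17 ± 0.13. Against saline, Pdia3 (-0.58 ± 0.14, edgeR adjusted p = 0.0388) and Psmb10 (-0.51 ± 0.14, 0.049) fell in treated Optn-/- livers, 2 of 12 beside 8.05% of all genes. Of the 12, 8 fell under total count scaling and in each limma fit, 4 with DESeq2 and 0 with the library set term. In this comparison total count scaling moved the median gene by -0.19. In both comparisons with saline more of all genes fell under that scaling than under TMM, as given below.

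Some regulators of these genes rose, while most had negative differences in wild type. Of 15 tested of 17 matched, 3 rose in wild type, where 8.36% of all genes were called as higher. The median of the 15 in wild type was -0.22, with 6 positive and 9 negative. By FPKM 9 of the 15 were lower without overlap, beside 45.1% of all genes, and 3 were higher without overlap, beside 21.1%. Between genotypes 0 differed (1 at an unadjusted edgeR p under 0.05, 0 adjusted), where 0.103% of all genes were called. The kinases of interferon receptors Jak2 (1.30 ± 0.22, edgeR adjusted p = 0.0184) and Jak1 (0.59 ± 0.14, 0.044) rose, as did Irf8, a transcription factor of monocytes, macrophages and dendritic cells (1.14 ± 0.22, 0.0246). These calls were lost with the library set term (Jak2 at 1.21, edgeR adjusted p = 0.0858, Jak1 at 0.68, 0.104, and Irf8 at 1.25, 0.0776) and without saline replicate 3, saline replicate 6 or treated wild-type replicate 1. The call of Jak1 was also lost under total count scaling (0.37, edgeR adjusted p = 0.141), in each limma fit and without any other 1 library. It was lost too with only the 2 groups compared (edgeR adjusted p = 0.0508), with filterByExpr (0.0681) and without a filter (0.0774). That of Irf8 was lost in limma with 0.5 (limma adjusted p = 0.0547) or 1 (0.0614) added. Irf1 was at -0.28 ± 0.18 (0.347). Ifng, interferon gamma itself, had a count of 0 in 5 libraries and an FPKM of 0.0346 in Optn-/- replicate 4.

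Nlrc5, the class I coactivator, had FPKM of 1.93 and 2.03 with saline, 1.62 and 2.08 in treated wild type, and 3.14 and 2.52 in treated Optn-/- mice. Both Optn-/- livers were above all others. The genotypes differed by 0.58 ± 0.18 (unadjusted p = 0.0194, edgeR adjusted p = 0.509), so the difference did not pass over all genes. Treated Optn-/- livers exceeded saline by 0.70 ± 0.18 (0.0472). Irf8 (0.46 ± 0.21, edgeR adjusted p = 0.617) and Rfxank, a subunit of the complex that binds the X box (0.36 ± 0.18, 0.627), were next by p between genotypes. Against saline, Jak1 (0.82 ± 0.14), Jak2 (1.56 ± 0.22), Irf8 (1.60 ± 0.22) and Nlrc5 rose in treated Optn-/- livers, and Irf2 (-1.15 ± 0.29) fell, with edgeR adjusted p from 0.0074 to 0.0472. These 4 rises among 15 tested stand beside 12.2% of all genes called as higher, and 8.05% were called as lower. With the library set term Jak2 and Irf8 were still called, and Jak1 (edgeR adjusted p = 0.0846), Nlrc5 (0.179) and Irf2 (0.131) were not. The call of Nlrc5 was also lost under total count scaling, in each limma fit and without any 1 library, that of Irf2 without either saline or either Optn-/- library, that of Jak1 without saline replicate 3 or Optn-/- replicate 5, and that of Jak2 without Optn-/- replicate 5.

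**Figure D4:**
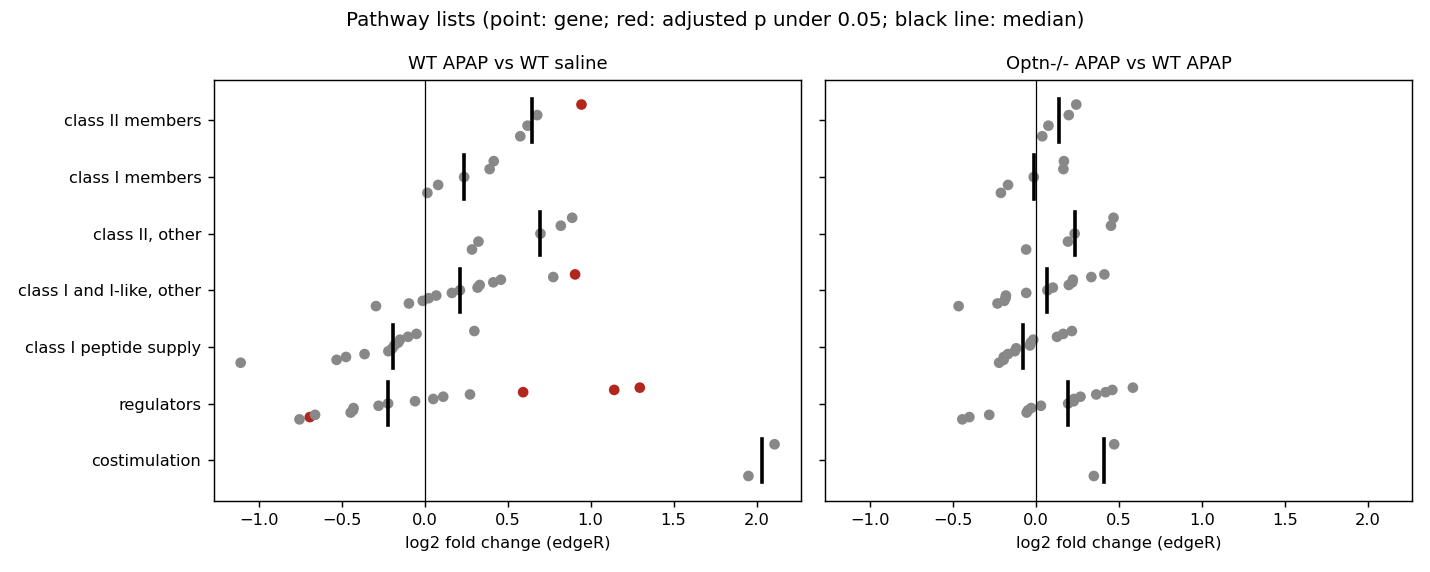
Log2 fold changes (horizontal axes, edgeR) of the tested members and of the other genes of each pathway list for treated against saline wild type and for treated Optn-/- against treated wild type. Points are genes, red where the adjusted p is under 0.05, and black lines are medians: in wild type 0.65 for the class II members, 0.24 for the class I members and -0.19 for the class I peptide supply genes.

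Markers of cells that make class II molecules were set beside these genes, and their part in the results was not tested. The 4 class II genes summed to 116 and 119 CPM with saline, 198 and 149 in treated wild type, and 182 and 203 in treated Optn-/- livers. Markers of infiltrating monocytes (6 genes, none at 0 in all libraries) summed to 2.45 and 4.15 CPM with saline and to 108 and 63.3 in treated wild type. They summed to 209 and 167 in treated Optn-/- livers. Of the 4 tested all 4 rose in wild type, where 8.36% of all genes were called as higher. Cd14 had the most counts of the 6 in every library, such as 6366 in treated wild-type replicate 1, where the next, F13a1, had 232. Cx3cr1 was not tested. Its FPKM was 0.0387 and 0.0402 with saline, 0.0117 and 0.234 in treated wild type, and 0.0198 and 0.0244 in treated Optn-/- livers. In treated wild type, replicate 1 was above replicate 4 both in the class II sum and in monocyte and neutrophil markers. In treated Optn-/- livers, replicate 5 was above replicate 4 in the class II sum and in neutrophil markers but below it in monocyte markers. Neutrophil markers (6 genes, with Cxcr2, Mmp8 or Retnlg at 0 in a saline library) summed to 2.25 and 5.65 CPM with saline and 68.3 to 189 in treated livers.

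Kupffer cell markers (8 genes) summed to 139 and 366 CPM with saline, 346 and 296 in treated wild type, and 559 and 369 in treated Optn-/- livers. Saline replicate 3 was the low library, while its class II sum was close to that of saline replicate 6. B cell markers (8 genes, Ms4a1 at 0 in 1 library) summed to 8.59 and 10.1 CPM with saline, 12.2 and 13.8 in treated wild type, and 19.5 and 18.9 in treated Optn-/- livers, all 3 groups apart. Of the 9 dendritic cell markers 0 passed the level filter, and their sum was 5.17 to 10.5 CPM in all libraries. T and NK cell markers also had all 3 groups apart in that order, as did the monocyte markers above. The T and NK cell sums were 3.18 and 4.19 CPM with saline, 4.76 and 4.91 in treated wild type, and 5.96 and 6.46 in treated Optn-/- livers. Markers of sinusoidal endothelium summed to 94.0 to 164 CPM and hepatocyte markers, among them Alb and Apoa1, to 102100 to 141400 CPM, so the defining markers of liver were present in every library. Neuron markers stood at 106 CPM in treated wild-type replicate 4 and at most 12.9 CPM elsewhere, and the differences of the class II genes were larger without that library, as given for Cd74 and H2-Aa above.

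**Figure D5:**
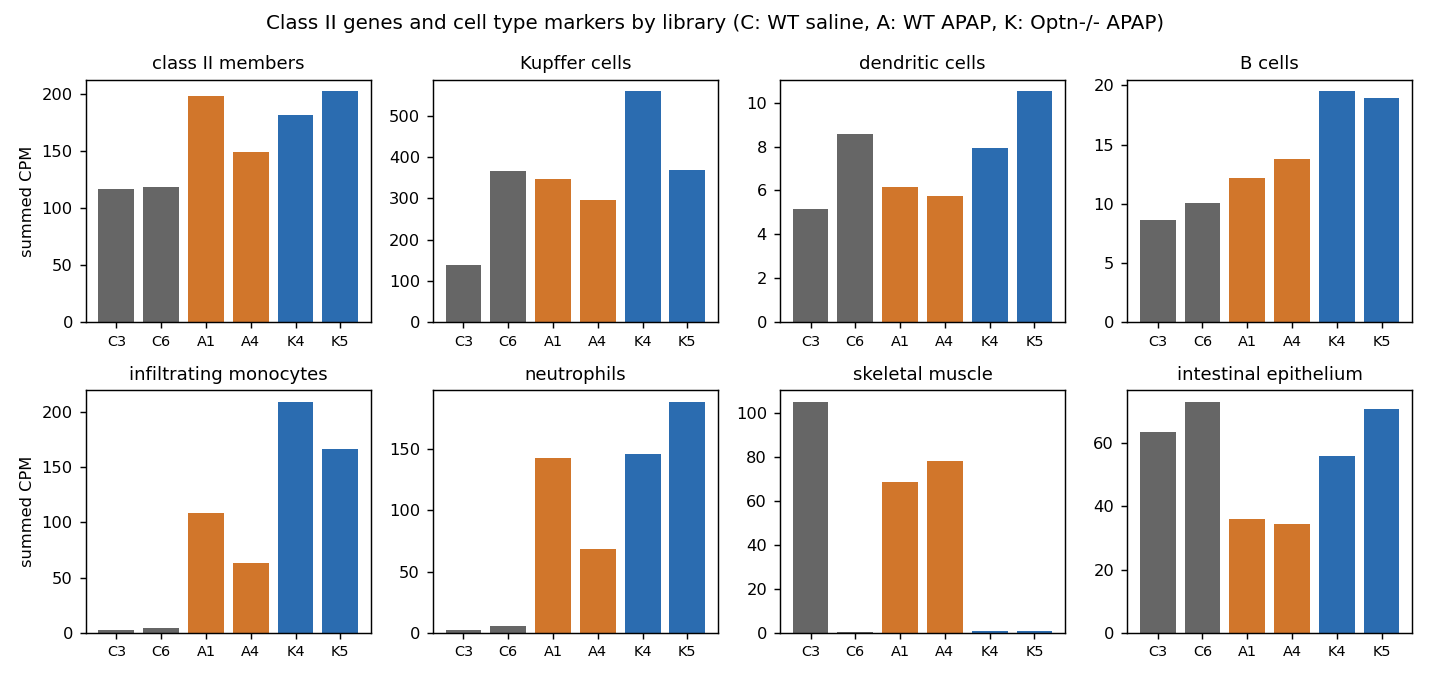
Summed CPM (vertical axes from 0, one scale per list) of the 4 class II genes and of cell type marker lists in each library (C, saline wild type; A, acetaminophen wild type; K, acetaminophen Optn-/-; digits, replicate number). The class II sum is 116 and 119 in saline livers and 149 to 203 in treated livers, monocyte and neutrophil markers are at most 5.65 in saline livers and at least 63.3 in treated livers, and muscle markers are at least 68.9 in C3, A1 and A4 and at most 1.01 elsewhere.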

How the data were processed

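Poly(A) RNA of 6 livers was sequenced as paired ends, per the labels' protocols, which mention an adipose type although each sample is labelled liver. The deposited table holds whole-number counts per gene and library, not normalized, per the file headers and the values. It also holds FPKM values, per the file headers, with an FPKM of 0.0001 listed for a count of 0. The headers do not say how FPKM was made. The gene length implied by count and FPKM varied little between libraries. Its highest value over its lowest had a median of 1.01 over 10205 genes with at least 100 counts in every library. The submitters' processing notes name Bowtie 0.12.2 and the genome build mm8, but 51954 of 55144 matched genes (94.2%) have the coordinates of the GRCm38 annotation GENCODE M21, so RefSeq promoters of GRCm38.p6 were used. The counter is not given in the sources used here, nor whether it used strand.

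Counts were tested with edgeR 4.0.16 in R 4.3.3 (TMM scaling, 3 group means over all 6 libraries, a mean FPKM of 0.5 or more, Benjamini-Hochberg adjusted p under 0.05), with a common biological coefficient of variation of 0.277 and 3 residual degrees of freedom. Alternatives used DESeq2 1.42.0, limma 3.58.1 with a trend on log2(FPKM + 0.5), other scalings and filters, a library set term, and each library left out. On simulated counts for the comparison in wild type (11677 genes), the fit called 11 of 100 genes changed by 1 on the log2 scale and 71 of 100 changed by 2. Nothing in the labels says how the mice were housed or batched, so a p-value reflects only the spread among these livers, which may be technical. A count of 0 allows up to 3 counts, and this covers counting error only.

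The 10 genes, the pathway lists and the cell markers were chosen with earlier results of these data known. All 10 genes are named, as are, from each pathway list, the 3 tested genes with the smallest p in wild type and between genotypes, and H2-Q10, H2-Ea-ps, Nlrc5, Irf1 and Ifng. A further gene of the regulator list is not reported here. Genes of these lists called in Optn-/- livers against saline, and the partner genes of shared or overlapping sequence, were named after their values were seen. Likeness was Pearson's r of log2 CPM (prior count 2).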

Additional observations from a re-analysis of the deposited data

How the results depend on the processing

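In wild type, where 1 member was called, the count was 2 at a mean FPKM of at least 5, 3 with DESeq2, and 0 with only the 2 groups compared or with the library set term. It ranged from 0 to 2 with 1 library left out. In treated Optn-/- livers against saline, where 3 were called, it was 5 at a mean FPKM of at least 5 and with DESeq2, 1 with filterByExpr and 0 with the library set term, and 0 to 4 with 1 library left out. Between genotypes it was 0 in every fit. The cause of these moves was not tested, except that leaving out a library leaves 1 liver in a group, which is then assumed to vary like the others. No paired analysis was possible because the groups compared share at most 1 replicate number.

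Of 153 fits of single members per comparison, 119 kept direction and call in wild type (23 reversed), 136 between genotypes (17 reversed) and 112 in treated Optn-/- livers against saline (14 reversed). For Cd74, H2-Aa, H2-Ab1, H2-Eb1 and H2-D1, 0 of the fits against saline reversed. In wild type B2m reversed to -0.14 with total count scaling, -0.12 in each limma fit and -0.0477 with the library set term. Tap1 reversed to -0.20 with total count scaling, -0.0375 without a filter, -0.0182 with filterByExpr, -0.16, -0.19 and -0.14 in limma with 0.5, 0.1 and 1 added, -0.0022 with 2 groups and -0.0681 with the library set term. Tapbp reversed to -0.0666, -0.072 and -0.0606 in the same limma fits and -0.13 with the library set term. Between genotypes the library set term gave -0.11 for H2-Eb1, 0.26 for B2m and 0.66 for Tapbp, and B2m was 0.0187 with total count scaling, 0.0274 at a mean FPKM of at least 5 and 0.0168 in each limma fit. In treated Optn-/- livers against saline B2m was -0.12 with total count scaling and -0.11 in each limma fit, and Tap1 was -0.0006 with total count scaling. Tapbp was -0.15 with total count scaling, -0.034 without a filter, -0.0106 with filterByExpr and -0.11, -0.11 and -0.10 in limma.

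With 1 library left out, values in wild type ran from -0.0697 to 0.22 for B2m, -0.0903 to 0.11 for Tap1 and -0.63 to 0.78 for Tapbp. Between genotypes they ran from -0.0339 to 0.59 for H2-Aa, -0.13 to 0.32 for H2-Eb1, -0.17 to 0.29 for Cd74, -0.36 to 0.0555 for H2-K1, -0.0339 to 0.0087 for B2m and -0.75 to 0.66 for Tapbp. Against saline in treated Optn-/- livers they ran from -0.0801 to 0.21 for B2m and -0.36 to 0.52 for Tapbp.

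Over all genes 1667 were called in wild type, 12 between genotypes and 2366 in treated Optn-/- livers against saline. These became 3107, 291 and 3620 with DESeq2 and 812, 3 and 960 with the library set term. At a mean FPKM of at least 5 they were 819 in wild type and 1035 in treated Optn-/- livers against saline. Between genotypes the count was 37 without a filter, 6 with filterByExpr and 30 with only the 2 groups compared. With 1 library left out the counts ran from 494 to 1263, 1 to 28 and 750 to 2201. Under total count scaling 721 rose and 1470 fell in wild type, against 976 and 691 under TMM, and 1134 rose and 1756 fell in treated Optn-/- livers against saline, against 1426 and 940.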

Other observations

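Costimulation genes, which T cells read together with presented peptides, had 6 entries, of which 2 passed the level filter and 0 were called in any comparison (edgeR in all 6 libraries, with both at an unadjusted p under 0.05 against saline in either genotype). Of all 11677 genes, 2021 were higher at an unadjusted edgeR p under 0.05 in wild type and 2282 in treated Optn-/- livers against saline. Cd274, the ligand of PD-1, had FPKM of 0.297 and 0.497 with saline, 2.40 and 0.543 in treated wild type, and 2.25 and 1.96 in treated Optn-/- mice. Treated wild-type replicate 4 was close to the saline livers. Its log2 fold change was 2.11 ± 0.71 in wild type (edgeR adjusted p = 0.103), 0.47 ± 0.67 between genotypes (0.874) and 2.58 ± 0.72 in treated Optn-/- livers against saline (0.055). Cd86, a ligand of CD28, had FPKM of 0.101 and 0.516 with saline, 1.29 and 0.766 in treated wild type, and 1.197 and 1.497 in treated Optn-/- mice. Its log2 fold changes were 1.95 ± 0.73 (edgeR adjusted p = 0.132), 0.35 ± 0.70 (0.921) and 2.30 ± 0.74 (0.0811) in the same order. With DESeq2 both genes were called against saline in either genotype (adjusted p from 0.00119 to 0.0332), and with the library set term Cd86 was called in wild type (3.54, edgeR adjusted p = 0.0345). DESeq2 also called more of all genes than edgeR did, as given above.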
